A study of Nicotiana tabacum with 78 samples.

Results

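Tobacco carries several genes for putrescine N-methyltransferase (PMT), the enzyme that the RNAi construct of this study was built to silence. The 5 genes described here, NITAB020971, NITAB020972, NITAB068130, NITAB068133 and NITAB068134, were chosen by their identifiers out of the 2075 genes in the deposited expression table, and they were the only 5 that its annotation names as putrescine N-methyltransferase. The Swiss-Prot match in the table is putrescine N-methyltransferase 4 for NITAB020971, NITAB020972 and NITAB068130, putrescine N-methyltransferase 3 for NITAB068133 and putrescine N-methyltransferase 2 for NITAB068134.

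RNA was sequenced from full-grown leaves and roots of TN90, which is a Burley cultivar without a transgene, and of the 3 transgenic TN90 lines PMT1, PMT2 and PMT3, obtained by Agrobacterium-mediated transformation with an RNAi construct driven by the constitutive 35S promoter. Plants of each genotype were either left untopped (control) or topped at flowering by cutting off the shoot top, and both tissues were collected a day later. The 4 genotypes, 2 tissues and 2 treatments make 16 groups. All 3 lines carry their construct in every tissue, so each differs from TN90 by transformation as well as by silencing, and no transformed line without the PMT construct was among the groups.

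PMT transfers a methyl group from S-adenosylmethionine to putrescine and so commits this polyamine to the pyrrolidine ring of nicotine. In tobacco the alkaloids are made in roots and carried to the leaves, and removal of the shoot apex is known to raise the root genes of the pathway through jasmonate and reduced auxin supply. PMT is related in sequence to spermidine synthase, which uses the same substrate, and the tomato match in the table names all 5 genes as spermidine synthase.

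The values are RPKM, that is read counts scaled to gene length and library size, given as the authors' mean for each group. A library's own value was not used here for any gene, so no spread, interval or test stands beside a mean, and neighbouring values in any order of groups given below cannot be told apart from library-to-library variation. The table lists only genes that the authors called in a root comparison of these libraries, some of them between a line and TN90, so a difference in the PMT genes is a description and not independent evidence. Reads could map to as many as 10 places, so close copies of PMT may share reads and the division among the 5 genes is uncertain.

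The authors listed 77 libraries, 3 to 6 per group. The listing and the sample labels disagree for topped PMT2 roots (6 libraries, 5 samples) and for topped TN90 leaves (3 libraries, 4 samples), the group against which topped leaves of the lines are set. Leaf libraries held 16.3 to 517 M reads and root libraries 22.1 to 150 M reads (M for mega), with 85.4 to 96.7% and 75.6 to 95.9% of reads mapped. A library listed as topped PMT2 root mapped at 95.9%, against 88.1% for the next highest root library. Whether this library entered the mean of its group was not tested. In that mean the leaf markers were at the root level, with 12.5 RPKM summed over 3 photosynthesis genes. The same sum was 7.98 to 20.8 RPKM in the root groups and 1692 to 2218 RPKM in the leaf groups. By the sample labels, leaf and root of 6 plants, 4 of PMT2 and 2 of PMT3, carry opposite treatments, which could not be matched to the columns, so PMT2 and PMT3 topping values hold only if the authors' columns carry the right treatment.

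In untopped TN90 roots the 5 genes spanned a wide range of levels. NITAB020971 was at 36.5 RPKM and NITAB068133 at 29.0 RPKM, and NITAB068134 followed at 13.9 RPKM. NITAB068130 and NITAB020972 were the lowest, at 5.89 and 5.54 RPKM. In TN90 leaves all 5 were below 1 RPKM, the highest being NITAB068133 in untopped leaves at 0.227 RPKM.

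All 5 genes were higher in topped than in untopped TN90 roots. NITAB020971 was at 276 RPKM (7.56-fold higher) and NITAB068133 also at 276 RPKM (9.49-fold). NITAB068134 was at 147 RPKM (10.5-fold), NITAB020972 at 75.8 RPKM (13.5-fold) and NITAB068130 at 67.5 RPKM (11.3-fold). In whole tissue, a change in the share of cells that express a gene and a change in its RNA per cell cannot be told apart. This holds for the rises given here and for the lower levels in the lines given below. The folds are of RPKM + 0.1, and a gene was counted as higher or lower where it differed by at least 2-fold and reached at least 1 RPKM in either group. The topping background in TN90 was high, with 47.3% of the table's genes counted as higher, so that the count of 5 of 5 says little by itself. The size of the rise stood further out, with a median log2 change of 3.39 for the PMT genes and 0.93 for the table, and NITAB020972 had the 9th largest rise of 2001 genes.

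**Figure D1:**
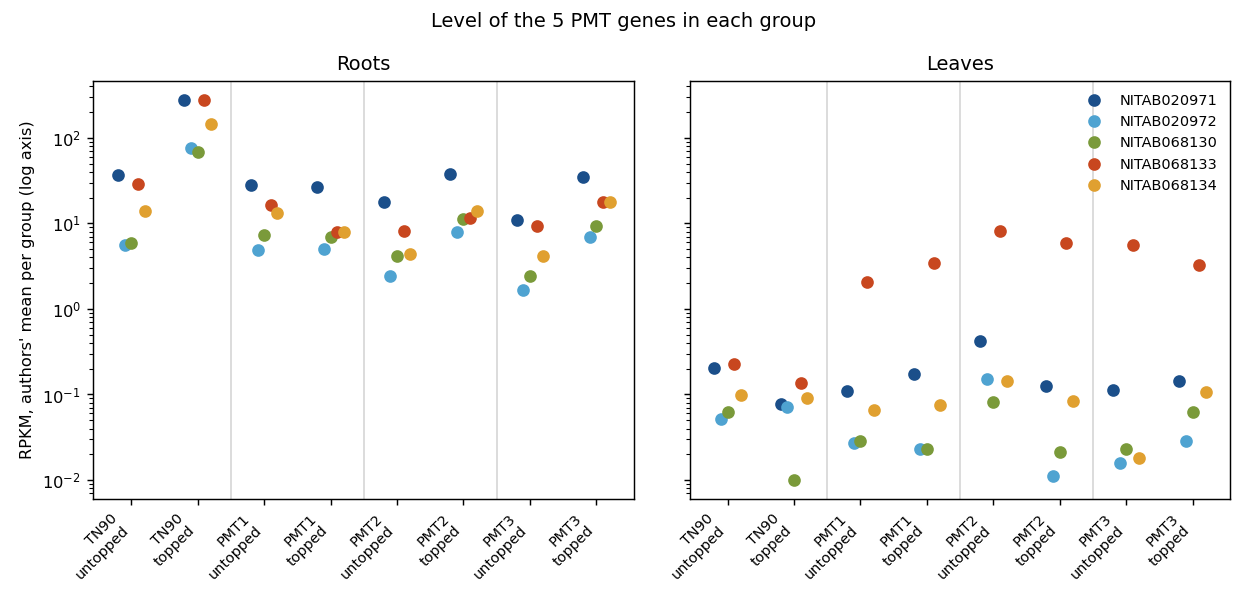
RPKM of the 5 PMT genes in the 8 root groups (left) and the 8 leaf groups (right), as the authors' mean per group on a log axis, with 1 point per gene. Topped TN90 roots stand above all other groups for every gene, and NITAB068133 is the only gene above 1 RPKM in leaves, in the 3 lines.

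Without topping, the 3 lines differed in how far the PMT genes were below TN90. PMT1 roots were close to TN90, with no gene counted as lower (3.32% of the table's genes were). In these roots NITAB020971 was at 27.9 RPKM, NITAB020972 at 4.82 RPKM, NITAB068130 at 7.35 RPKM, NITAB068133 at 16.3 RPKM and NITAB068134 at 13.1 RPKM. NITAB068133 was furthest below TN90 (1.77-fold), and NITAB068130 was above TN90 by 0.31 on the log2 scale, as was the median of the table. With each column centred on the table's median, NITAB068133 alone was counted as lower in PMT1.

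In untopped PMT2 roots 4 of the 5 genes were counted as lower than in TN90, against 8.93% of the table. NITAB068133 (8.10 RPKM, 3.54-fold lower) and NITAB068134 (4.37 RPKM, 3.12-fold lower) were furthest below. NITAB020972 (2.43 RPKM, 2.22-fold lower) and NITAB020971 (17.8 RPKM, 2.05-fold lower) passed the 2-fold limit by little, and NITAB068130 (4.16 RPKM, 1.41-fold lower) did not pass it. The count was 2 of 5 with a 3-fold limit or with 1 RPKM added to each value. The table as a whole lay 0.73 above TN90 in its log2 median in this comparison, the opposite side from the PMT genes, whose median was −1.15.

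Untopped PMT3 roots held the lowest level of 4 of the 5 genes among all root groups. All 5 were counted as lower than in TN90, against 9.53% of the table. NITAB020971 was at 10.9 RPKM (3.34-fold lower), NITAB068134 at 4.14 RPKM (3.29-fold lower), NITAB020972 at 1.68 RPKM (3.16-fold lower) and NITAB068133 at 9.44 RPKM (3.04-fold lower). NITAB068130, at 2.41 RPKM, was again the least reduced (2.38-fold lower). The log2 median of the 5 was −1.66 and that of the table −0.17.

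After topping, the distance from TN90 was larger in every line and for every gene. All 5 genes were counted as lower than in topped TN90 roots in PMT1 (7.09% of the table), in PMT2 (6.98%) and in PMT3 (17.9%). NITAB068133 was furthest below in each line, at 7.86 RPKM in PMT1 (34.6-fold lower), 11.6 RPKM in PMT2 (23.7-fold lower) and 18.0 RPKM in PMT3 (15.2-fold lower). NITAB068130 was the least reduced in each line, at 6.88 RPKM in PMT1 (9.69-fold lower), 11.1 RPKM in PMT2 (6.03-fold lower) and 9.23 RPKM in PMT3 (7.25-fold lower). The other 3 genes lay between these limits.

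NITAB020971 stayed the most abundant of the 5 in every line, with 26.4 RPKM in topped PMT1 roots (10.4-fold below topped TN90), 37.7 RPKM in PMT2 (7.32-fold) and 34.8 RPKM in PMT3 (7.94-fold). NITAB068134 was at 7.82 RPKM in PMT1 (18.5-fold below), 13.8 RPKM in PMT2 (10.6-fold) and 18.0 RPKM in PMT3 (8.12-fold). NITAB020972 was at 4.97 RPKM in PMT1 (15.0-fold below), 7.90 RPKM in PMT2 (9.48-fold) and 6.99 RPKM in PMT3 (10.7-fold). The comparisons share the TN90 columns, so a high value there enters all 3 lines at once.

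Across the table, 27 of 2075 genes, or 1.3%, were at least 2-fold below TN90 in the topped roots of all 3 lines, the 5 PMT genes among them. Ordered by the line in which a gene was least reduced, the PMT genes took places 1 (NITAB068133), 3 (NITAB020972), 5 (NITAB068134), 6 (NITAB020971) and 9 (NITAB068130). Place 2, a gene picked out after its values were seen, was NITAB016019, at least 14.5-fold below TN90 in each line. It is annotated as the auxin-responsive protein IAA15, a member of a family of repressors of auxin response. The order required only 1 RPKM in a root group, and whether this ratio rests on low values was not tested.

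**Figure D2:**
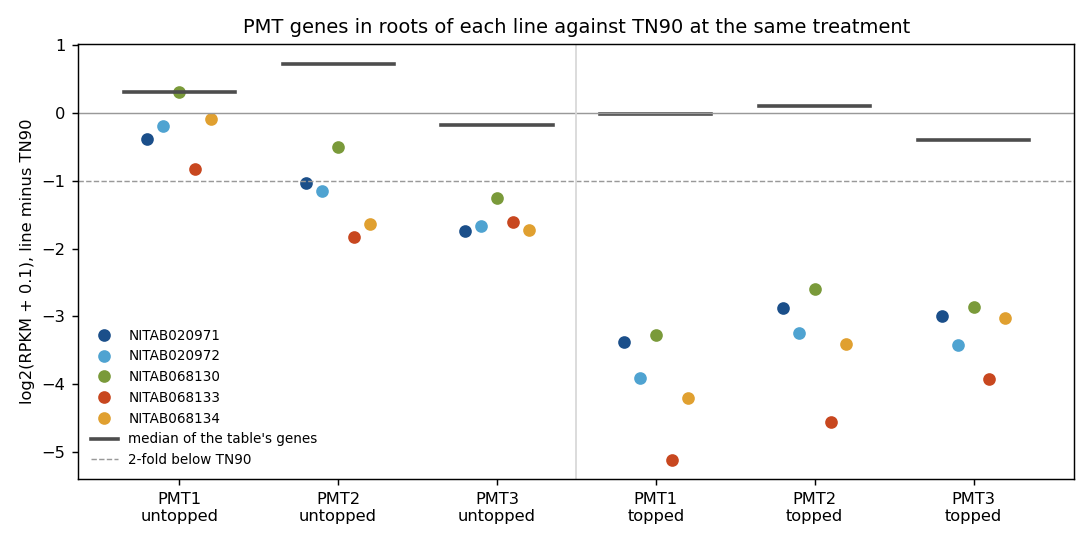
Difference in log2(RPKM + 0.1) between each line and TN90 in untopped (left) and topped (right) roots, with 1 point per PMT gene, a bar for the median of the table's genes in that comparison and a dashed line at 2-fold below TN90. In untopped roots the points of PMT1 lie above the dashed line and those of PMT3 below it, and in topped roots all points lie between −2.59 and −5.11.

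The response to topping itself differed among the lines. In PMT1 no PMT gene was counted as higher after topping, while 22.1% of the table's genes were. NITAB020971 went from 27.9 to 26.4 RPKM, NITAB020972 from 4.82 to 4.97 RPKM and NITAB068130 from 7.35 to 6.88 RPKM, all within 1.07-fold. NITAB068134 went from 13.1 to 7.82 RPKM (1.66-fold lower), and NITAB068133 was counted as lower, from 16.3 to 7.86 RPKM (2.06-fold), against 3.97% of the table. With 1 RPKM added to each value its log2 change was −0.96, short of 2-fold. The median log2 change of the 5 genes was −0.10, against 0.47 in the table.

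In PMT2 4 of the 5 genes were counted as higher after topping, against 12.7% of the table. NITAB020972 went from 2.43 to 7.90 RPKM (3.16-fold), NITAB068134 from 4.37 to 13.8 RPKM (3.10-fold), NITAB068130 from 4.16 to 11.1 RPKM (2.63-fold) and NITAB020971 from 17.8 to 37.7 RPKM (2.12-fold). NITAB068133 was the exception, at 8.10 and 11.6 RPKM (1.42-fold). The count was 2 of 5 with a 3-fold limit, and 3 of 5 with each column centred on the table's median, where NITAB020971 was at 0.90 on the log2 scale. The median log2 change was 1.40, against 0.13 in the table, and when each column was centred on 30 other alkaloid genes, which were themselves higher after topping, the change of NITAB020971 turned to −0.04.

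In PMT3 the same 4 genes were counted as higher, against 27.9% of the table. NITAB068134 went from 4.14 to 18.0 RPKM (4.26-fold), NITAB020972 from 1.68 to 6.99 RPKM (3.97-fold), NITAB068130 from 2.41 to 9.23 RPKM (3.71-fold) and NITAB020971 from 10.9 to 34.8 RPKM (3.18-fold). NITAB068133 went from 9.44 to 18.0 RPKM (1.90-fold). The median log2 change was 1.89, against 0.39 in the table, and it turned to −0.16 with each column centred on the 30 other alkaloid genes. NITAB068133 thus had the smallest rise of the 5 in PMT2 and PMT3 and the largest fall in PMT1, while in TN90 its rise was the fourth of the 5.

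**Figure D3:**
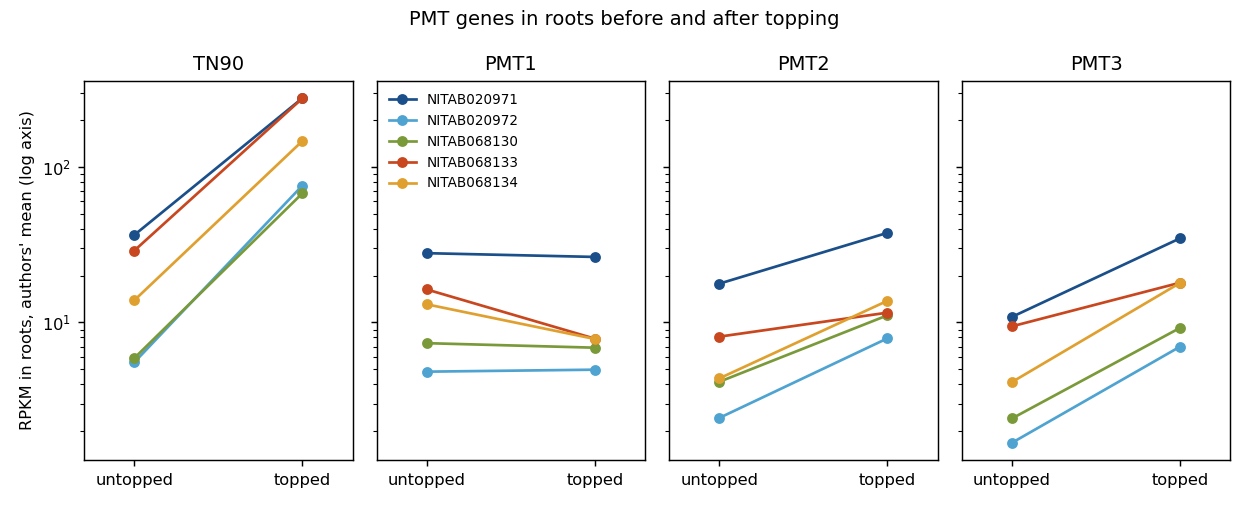
RPKM of each PMT gene in untopped and topped roots of TN90 and the 3 lines, as the authors' mean per group on a shared log axis. The connecting lines are steep and nearly parallel in TN90, flat or falling in PMT1, and rising with a smaller slope in PMT2 and PMT3, where NITAB068133 has the flattest line.

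Set directly against TN90, the topping change of all 5 genes was at least 2-fold smaller in each line. The table's share past the same limit was 14.1% in PMT1, 32.3% in PMT2 and 17.3% in PMT3. In each line the log2 topping change of the PMT genes minus that of TN90 had a median of −3.71 in PMT1, −2.09 in PMT2 and −1.61 in PMT3. The medians of the table were −0.24, −0.58 and −0.26. NITAB068133 had the largest shortfall in every line, 19.5-fold in PMT1, 6.68-fold in PMT2 and 5.00-fold in PMT3.

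Summed over the 5 genes, the root level in TN90 went from 90.7 to 842 RPKM on topping. In PMT1 it went from 69.4 to 53.9 RPKM, which was 76.5% of TN90 before topping and 6.40% after it. In PMT2 it went from 36.8 to 82.0 RPKM, or from 40.6% to 9.74% of TN90, and in PMT3 from 28.5 to 86.9 RPKM, or from 31.5% to 10.3%. The line with the highest level before topping therefore had the lowest after it.

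Topped roots of the lines lay near the level of TN90 roots that had not been topped. The median log2 difference from untopped TN90 was −0.47 in PMT1, 0.05 in PMT2 and 0.33 in PMT3, while the table's medians were 1.01, 0.95 and 0.38. No PMT gene was counted as higher, against 50.3% of the table in PMT1, 49.1% in PMT2 and 18.7% in PMT3. NITAB068133 alone was counted as lower, by 3.65-fold in PMT1 (8.35% of the table) and 2.49-fold in PMT2 (11.1%), and in PMT3, where 6.65% of the table was counted as lower, it was 1.60-fold lower. For NITAB068130 all 3 topped lines lay above untopped TN90, by 1.16-fold in PMT1, 1.87-fold in PMT2 and 1.56-fold in PMT3.

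The leaves gave a different picture, set by NITAB068133 alone. This gene was at 2.05 RPKM in untopped and 3.47 RPKM in topped PMT1 leaves, at 8.10 and 5.95 RPKM in PMT2 leaves, and at 5.56 and 3.28 RPKM in PMT3 leaves, against 0.227 and 0.137 RPKM in TN90. Every leaf group of a line was thus above both leaf groups of TN90. The smallest difference was 6.57-fold, in untopped PMT1, and the largest 25.5-fold, in topped PMT2.

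NITAB068133 was the only PMT gene that reached 1 RPKM in a leaf group, and it was counted as higher than in TN90 in all 6 comparisons. The share of the table's genes counted as higher in untopped leaves was 4.55% in PMT1, 9.41% in PMT2 and 3.09% in PMT3, and in topped leaves 15.2%, 14.8% and 25.6%. Of 1060 genes with at least 1 RPKM in a leaf group, 10, or 0.943%, were at least 2-fold above TN90 in all 3 lines at both treatments, and among these the smallest ratio of NITAB068133 was larger than that of any other gene. The size of these ratios depends on the 0.1 RPKM added to the low TN90 values.

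The other 4 genes stayed low in leaves of all genotypes. NITAB020971 ranged from 0.0783 to 0.419 RPKM, NITAB020972 from 0.0111 to 0.150 RPKM, NITAB068130 up to 0.0810 RPKM and NITAB068134 from 0.0180 to 0.142 RPKM. Each had its highest leaf value in untopped PMT2. Without NITAB068133, the summed leaf level of the lines was 41.0 to 190% of that in TN90, with lines on both sides. Topping did not move NITAB068133 by 2-fold in leaves of any line, with a 1.66-fold higher mean in PMT1 and a 1.36-fold and 1.67-fold lower mean in PMT2 and PMT3.

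Because RPKM is per gene length, the 5 genes can be set side by side as shares of their sum. In roots NITAB020971 made up 32.8 to 48.9% and NITAB068133 14.1 to 33.1%, with NITAB068134 at 11.9 to 20.7%, NITAB068130 at 6.49 to 13.5% and NITAB020972 at 5.90 to 9.63%. In leaves of the lines NITAB068133 made up 89.8 to 97.0%, against 35.2 to 35.5% in TN90 leaves. The TN90 leaf shares rest on low values, since the 5 genes summed to only 0.644 RPKM in untopped and 0.387 RPKM in topped leaves. The ratio of NITAB068133 to NITAB020971 in roots fell on topping in each line, from 0.584 to 0.298 in PMT1, from 0.456 to 0.307 in PMT2 and from 0.869 to 0.518 in PMT3, and went from 0.793 to 0.997 in TN90. In leaves of the lines this ratio was 18.5 to 48.8. Whether reads of the construct were counted in NITAB068133 was not tested, since the sequence of the construct was not used here.

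**Figure D4:**
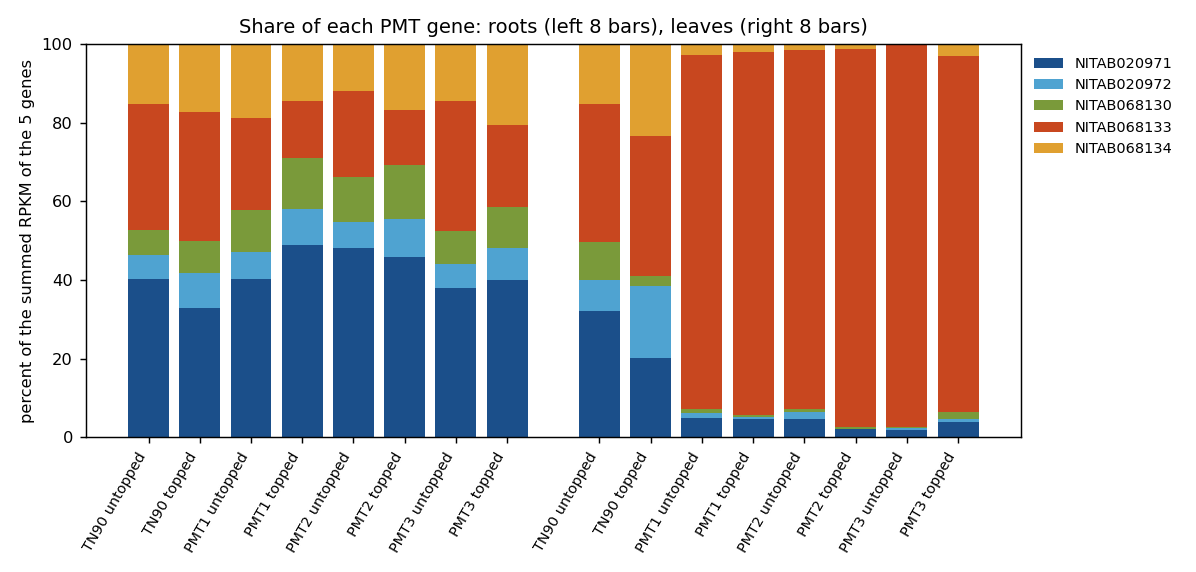
Share of each PMT gene in the summed RPKM of the 5, in percent, for the 8 root groups (left bars) and the 8 leaf groups (right bars). NITAB068133 fills 89.8 to 97.0% of the bars of the lines' leaves and at most 33.1% of a root bar.

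For 4 of the 5 genes every root group was at least 2-fold above every leaf group, as was the case for 51.2% of the table. Within a genotype and treatment their root to leaf ratio ran from 10.1-fold to 1551-fold. NITAB068133 was the exception, with a ratio of 1.00 in untopped PMT2, where root and leaf both held 8.10 RPKM, of 1.69 in untopped PMT3 and 1.93 in topped PMT2. In TN90 the same gene was 88.9-fold higher in untopped roots than in leaves and 1162-fold higher in topped roots.

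Over the 8 root groups the 5 genes followed each other closely, as a description over points that share libraries and in which topped TN90 carries much of the range. Pearson's r of log2(RPKM + 0.1) between pairs of PMT genes was 0.97 to 0.99 among NITAB020971, NITAB020972, NITAB068130 and NITAB068134. Pairs with NITAB068133 had r of 0.87 to 0.94. The order of root groups for NITAB020971, from the highest, was topped TN90, topped PMT2, untopped TN90, topped PMT3, untopped PMT1, topped PMT1, untopped PMT2 and untopped PMT3, and for NITAB068133 untopped TN90 came second and topped PMT1 last.

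The PMT genes were then set beside 30 other alkaloid genes, by their step in the pathway. These genes are the study's own candidates, chosen on these samples, so their directions are not independent evidence. On topping 29 of the 30 were counted as higher in TN90 roots, 26 in PMT1, 22 in PMT2 and 25 in PMT3 (47.3%, 22.1%, 12.7% and 27.9% of the table), with median log2 changes of 2.17, 1.69, 1.25 and 2.22. Against topped TN90 roots their medians were −0.09 in PMT1, 0.30 in PMT2 and −0.63 in PMT3, with 3, 2 and 4 of 30 counted as lower, which is near the table's shares of 7.09%, 6.98% and 17.9%. In untopped PMT2 roots 20 of the 30 were counted as higher than TN90 and none as lower, where 39.7% of the table was higher and no PMT gene was.

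Upstream of PMT, ornithine decarboxylase makes putrescine, and S-adenosylmethionine synthase makes the methyl donor. Against topped TN90 roots, the 2 ornithine decarboxylase genes had median log2 differences of 0.02 in PMT1, 0.23 in PMT2 and −0.40 in PMT3, and the 2 S-adenosylmethionine synthase genes 0.06, 0.27 and −0.72. None of these 4 genes was counted as lower in any line.

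Downstream, methylputrescine oxidase turns the PMT product into the precursor of the pyrrolidine ring. Its 3 family genes were counted as higher after topping in all 4 genotypes, with median log2 changes of 2.14 in TN90, 1.62 in PMT1, 1.16 in PMT2 and 2.06 in PMT3. NITAB041830 went from 10.1 to 45.1 RPKM in TN90, from 13.9 to 42.9 RPKM in PMT1, from 30.5 to 64.2 RPKM in PMT2 and from 6.78 to 28.4 RPKM in PMT3. NITAB056530 reached 42.0, 38.1, 55.1 and 33.1 RPKM in topped roots of these genotypes, and NITAB056529 35.0, 35.1, 49.3 and 26.0 RPKM. In topped PMT1 roots the 3 genes had a median log2 difference of −0.07 from TN90, in the group in which the PMT genes were 9.69-fold to 34.6-fold lower.

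Spermidine synthase is the relative of PMT that draws on the same putrescine pool. Its 3 genes were among the 10 genes with the root pattern most like that of PMT, described below. Each had Pearson's r of 0.83 over the 8 root groups, but only 0.23 to 0.52 without topped TN90 roots. In TN90 roots NITAB055952 went from 37.4 to 73.1 RPKM on topping, NITAB041017 from 20.3 to 40.9 RPKM and NITAB026467 from 3.65 to 9.56 RPKM. The 3 genes had median log2 topping changes of 1.01 in TN90, 0.13 in PMT1, 0.38 in PMT2 and −0.06 in PMT3. The PMT medians in PMT2 and PMT3, 1.40 and 1.89, were nearer to those of methylputrescine oxidase, 1.16 and 2.06. In PMT1 the PMT median, −0.10, was nearer to that of spermidine synthase, 0.13, than to that of methylputrescine oxidase, 1.62. Against topped TN90 roots the spermidine synthase medians were −1.09 for PMT1 and −1.37 for PMT2. In PMT3 the 3 genes lay between −1.73 and −2.37. In PMT1, PMT2 and PMT3, 2, 2 and 3 of the 3 genes were counted as lower. All 3 genes were furthest below TN90 in PMT3, and all 5 PMT genes in PMT1.

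Whether reads of PMT and spermidine synthase were shared between the genes was not tested. In leaves, the spermidine synthase genes NITAB055952, NITAB026467 and NITAB041017 reached up to 8.63, 4.86 and 7.16 RPKM, where 4 of the 5 PMT genes stayed below 1 RPKM.

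**Figure D5:**
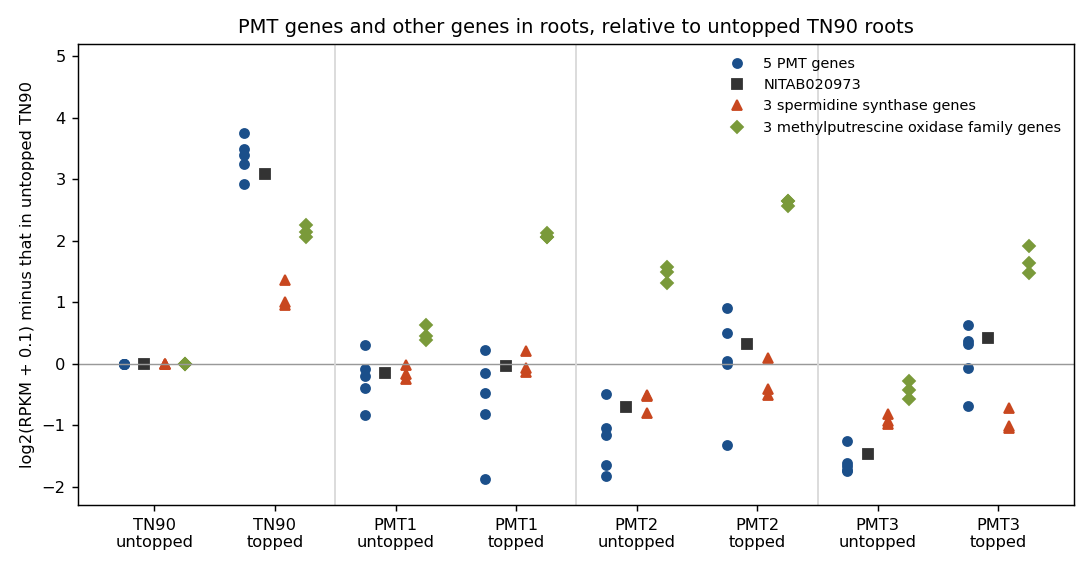
Difference in log2(RPKM + 0.1) from untopped TN90 roots for the 5 PMT genes, NITAB020973, 3 spermidine synthase genes and 3 methylputrescine oxidase family genes in the 8 root groups, with 1 point per gene. In topped roots of the lines the methylputrescine oxidase genes lie above the untopped TN90 level and the PMT genes around it, and the spermidine synthase genes lie near it in PMT1 and below it in PMT3.

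The 10 genes whose root pattern was most like the mean PMT pattern were taken from the 1583 genes that reached 5 RPKM in some root group, by Pearson's r of log2(RPKM + 0.1) over the 8 root groups. The median r of all 1583 was 0.23, that of the 30 other alkaloid genes 0.48, and 12 genes reached 0.8. NITAB020973, whose tomato match is a putative WD-repeat protein and whose identifier directly follows that of NITAB020972, came first with r of 0.99. It was also first by Spearman's rho, over all 16 groups, without topped TN90 and with a lower minimum of 1 RPKM.

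NITAB020973 went from 68.8 to 583 RPKM in TN90 roots on topping (8.46-fold), and stayed at 24.8 to 92.0 RPKM in the roots of the lines and at 0.176 to 0.861 RPKM in leaves. In the lines it went from 62.2 to 67.5 RPKM in PMT1, from 42.3 to 85.8 RPKM in PMT2 and from 24.8 to 92.0 RPKM in PMT3. Its ratio to NITAB020971 was 1.89 to 2.65 in all 8 root groups. It was at least 6.34-fold below topped TN90 roots in each line. Whether it shares sequence or reads with the PMT genes was not tested.

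The next 9 genes had r of 0.83 to 0.93 but much smaller differences between topped and untopped TN90 roots, of 1.23-fold to 2.58-fold. They were NITAB070946, a putative transmembrane protein (7.21 to 10.9 RPKM in TN90), NITAB083247, which has no annotation, NITAB041652, a late embryogenesis abundant protein, NITAB044637, a dirigent protein (134 to 209 RPKM), NITAB046853, a metallocarboxypeptidase inhibitor, NITAB079822, a hydroxyproline-rich systemin (4.85 to 5.99 RPKM), and the 3 spermidine synthase genes. Dirigent proteins guide the coupling of phenolic radicals, and hydroxyproline-rich systemins are precursors of wound-signalling peptides in tobacco and its relatives. Of the 10 genes, 1 was still among the first 10 by Spearman's rho and 2 without topped TN90, NITAB020973 included, so the rest of the list depends on the measure and on a single group.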

How the data were processed

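The members and the gene lists were chosen with earlier results of these data known. Libraries were made with TruSeq Stranded Total RNA Gold and sequenced on an Illumina HiSeq instrument. Per the labels and methods, the authors used the RNA-Seq Analysis tool (2.16) of CLC Genomics Workbench (11.0.1) with a revised tobacco genome. Similarity and length fraction were both set to 0.95, a read could hit 10 places, and each read of a pair was counted. The build was not given in the sources used here. The deposited table of libraries gives the read count and the percent of reads mapped. The second deposited table gives RPKM as the authors' mean per group for 2075 genes called by them in roots (exact test of edgeR, p up to 0.05, 2-fold or more). Read counts per gene were not analysed here, and depth is known only as reads per library.

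From the RPKM values, differences of log2(RPKM + 0.1) were computed, and a gene was counted as higher or lower at a 2-fold difference with at least 1 RPKM in either group. No p-value was computed, since tests over libraries need a value per library. Shares of the table past the same limits stand beside the members' counts. The genes named were the 5 members, the spermidine synthase and methylputrescine oxidase family genes, and the 10 genes with the highest Pearson's r with the mean PMT root pattern; 1 other gene was named after its values were seen. Of 78 samples, 77 were assigned to groups from their titles and treatment labels; the tissue tag differs from the title in 35, and 1 PMT2 sample stayed unassigned. None of the identifiers was found in the RefSeq gene table used here, so no position or sequence is given. Counting and ranking were tested on simulated data. Alternatives were pseudocounts of 1 and 0.01, RPKM minimums of none and 5, a 3-fold limit, 2 centrings of the columns, and for likeness another measure, other groups and a lower minimum. Python 3.11.15, numpy 2.4.6, pandas 2.3.3 and matplotlib 3.10.9 were used.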

Additional observations from a re-analysis of the deposited data

Results flagged for a closer look

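No value per library was used for any gene, so single libraries that stand apart within a group of 4 or more were looked for in the read totals and mapping percentages. Of 30 groups and measures, 8 had such a library, and chance flags about 1 in 20 groups. The lowest mapping percentage stood apart in topped PMT1 leaves (92.2%), in untopped and topped PMT2 leaves (91.7% and 90.4%) and in untopped PMT3 leaves (88.4%), and the highest in untopped PMT3 roots (86.3%). The highest read total stood apart in topped PMT2 leaves (508 M reads), untopped PMT2 roots (138 M) and untopped PMT3 leaves (517 M). How much each of these libraries contributes to the means of the PMT genes was not tested.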

How the results depend on the processing

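No paired analysis was possible because the RPKM columns are means over a group and carry no replicate numbers, and for the same reason no replicate could be left out. Of 134 recomputed summary values, 108 stayed within a factor of 1.5 of the main value. The other RPKM minimums could not change a count of PMT genes in roots, since every gene counted there reached 5 RPKM in either group. In leaves NITAB068133 stayed below 5 RPKM in untopped PMT1 (2.05 RPKM), topped PMT1 (3.47 RPKM) and topped PMT3 (3.28 RPKM). It was above 5 RPKM in untopped PMT3 (5.56 RPKM) and in untopped and topped PMT2 (8.10 and 5.95 RPKM). The leaf comparisons were not counted again with that minimum. With 1 RPKM added, the log2 ratio of NITAB068133 to TN90 in untopped leaves became 1.31 in PMT1, 2.89 in PMT2 and 2.42 in PMT3, and in topped leaves 1.97, 2.61 and 1.91. With 0.01 RPKM added, it became 4.56, 5.34 and 4.48 in topped leaves. The count of PMT genes lower than TN90 in untopped PMT2 roots became 2 with 1 RPKM added and 2 with a 3-fold limit, and the count higher after topping in PMT2 became 2 with a 3-fold limit. Centring columns on the table's median gave 1 lower gene in untopped PMT1 and a topping median of 2.73 in TN90. Centring on the 30 other alkaloid genes gave topping medians of 1.21 in TN90, −1.55 in PMT1, 0.28 in PMT2 and −0.16 in PMT3, medians against TN90 of −2.37 in untopped PMT2 and −2.41 in topped PMT3, and topping medians relative to TN90 of −2.98 in PMT1 and −1.03 in PMT2. Under it the topping change turned to −0.038 for NITAB020971 in PMT2 and to −0.38 for NITAB020971, −0.060 for NITAB020972 and −0.16 for NITAB068130 in PMT3. These 30 genes were themselves higher after topping. Of the 10 genes most like the PMT pattern, 1 was kept by Spearman's rho, 5 over 16 groups, 2 without topped TN90 and 6 with a minimum of 1 RPKM.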
